A study of Mus musculus with 5 samples.

Results

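Transcripts of 41 genes of DNA replication were followed in ID8 cells, an ovarian cancer line derived from mouse ovarian surface epithelium, which grows in the peritoneum and brings on ascites. The genes cover origin licensing, the MCM helicase, the polymerases, the sliding clamp and its loader, nucleotide supply and the assembly of chromatin behind the fork. They were chosen by name and function, with earlier results of these data known, so the choice was not blind to the values. Each was read from the probe set with the highest mean signal among those annotated to that gene alone. By this rule 39 of the 41 were measured, out of 12393 genes in all, and Gins2 and Chaf1a were not analysed here. The labels describe 3 arrays (replicates 1, 2 and 3) of parental ID8 cells in DMEM with 10% fetal bovine serum (FBS), and 2 arrays (replicates 2 and 3) of ID8 cells in DMEM with 10% ascites fluid taken from mice bearing ID8 tumours. The ascites culture lasted 7 days. Whether the FBS culture lasted as long, and whether the ascites medium also held serum, is not settled by the labels. All arrays come from 1 cell line, and nothing says that replicates were separate cultures, so a p-value here speaks of the scatter among arrays alone, and that scatter may be technical.

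Replication starts at origins that are licensed in G1 phase, when the origin recognition complex, CDC6 and CDT1 load rings of MCM2 to MCM7 onto DNA. In S phase, CDC45 and the GINS complex join these rings to form the active helicase, primase and DNA polymerase alpha lay down primers, and polymerases epsilon and delta copy the strands while held by the PCNA clamp. Many of these genes are transcribed in late G1 and S phase under the control of E2F factors, which the retinoblastoma family restrains. In RNA from a whole culture, a smaller share of cells in S phase and less transcript per cell cannot be told apart.

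Replication transcripts were lower in ascites than in FBS, and by the fit across all genes only Tk1 fell. The mean signal was lower in ascites for 38 of the 39 measured genes, where 49.0% of all genes were lower, and Rfc1 was the exception. The median log2 change, ascites minus FBS, was -0.65 over the 39 genes and 0.00 over all genes. Both ascites arrays lay below all 3 FBS arrays for 35 of the 39 genes (89.7%), as they did for 19.4% of all genes. Past an adjusted p of 0.05 in limma, 1 of the 39 genes fell, which is 2.56% of them and no more than the 2.59% of all genes that fell. Of the 39, 0 rose, against 2.69% of all genes. At an unadjusted limma p below 0.05, 19 of the 39 were lower, against 12.5% of all genes, and 0 were higher. Genes that vary together across arrays are not separate evidence, so these shares describe the list and test nothing.

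The FBS arrays disagreed about replication genes more than about most others. FBS replicates 1 and 2 nearly coincided, with a median absolute difference of 0.05 over the 39 genes and 0 of all genes differing at least 2-fold. On the probe sets used, FBS replicate 3 read above both of them for all 39 genes, as it did for 41.7% of all genes. Lists compared further on shared this, with 11 of 11 genes of homologous recombination, 20 of 23 of mitosis and 48 of 58 further replication genes. FBS replicate 3 gave the highest signal of the 5 arrays for each of the 39, and for 3243 of all 12393 genes. Its excess over the mean of replicates 1 and 2 had a median of 0.65 on the log2 scale and ran from 0.21 for Pola1 to 1.37 for Orc1. Against FBS replicates 1 and 2 alone, the ascites arrays differed by a median of -0.45, and against replicate 3 by a median of -1.03. For 26 of the 39 genes the gap within FBS was larger than the gap between ascites and FBS replicates 1 and 2. The same held for 5222 of all 12393 genes. Intervals and p-values from all 5 arrays carry this spread. Without FBS replicate 3, 20 of the 39 genes fell in limma (51.3%), against 10.9% of all genes, but the FBS spread then rests on a pair of arrays that are almost alike. When FBS replicate 1 or 2 was left out, Tk1 did not pass (limma adjusted p = 0.16 and 0.166) and 0 of the 39 genes were called. In each of these fits 16 of the 39 were lower at an unadjusted limma p below 0.05. Of all 12393 genes, 2088 and 2016 passed that p, counting both directions. Leaving out ascites replicate 2 or 3 left 1 ascites array, with a median change of -0.65 or -0.69 over the 39 genes.

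**Figure D1:**
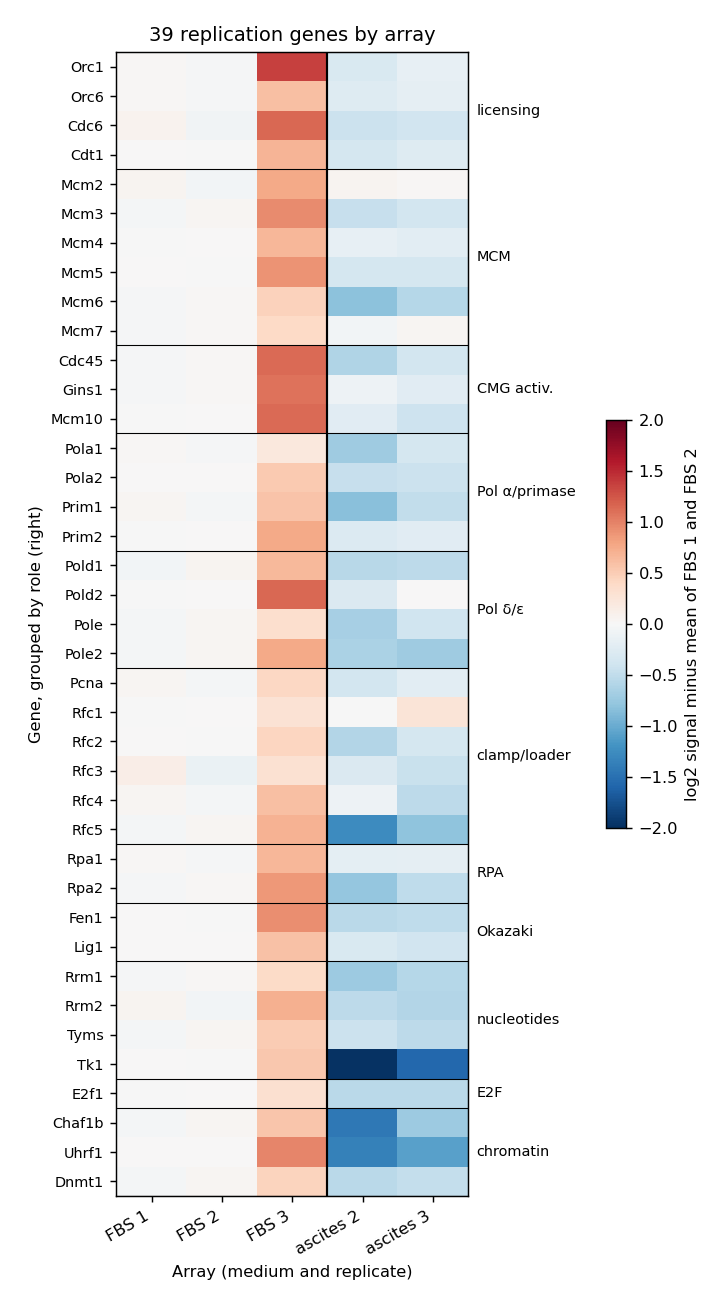
Heat map of the log2 signal of each of the 39 genes on each of the 5 arrays, minus that gene's mean over FBS replicates 1 and 2, with genes grouped by role. The column of FBS replicate 3 is above 0 (red) for all 39 genes, and the ascites columns are mostly below 0 (blue), most deeply for Tk1, Uhrf1, Rfc5 and Chaf1b.

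The RefSeq promoter table of GRCm38.p6 held windows, from 250 bases before to 50 bases after an annotated start, for 34 of the 39 genes (42 windows, since some genes have several starts). E2F factors bind sequences close to TTTCCCGC, TTTCGCGC, TTTGCCGC and TTTGGCGC, and these 4 were searched on both strands, with overlapping matches allowed. At least 1 was found in 14 of the 42 windows (33.3%), against 3.38% of the windows of all genes on the array and 2.26% of all windows. The genes with a match were Orc1, Cdc6, Cdt1, Mcm3, Mcm5, Mcm6, Mcm7, Pola1, Pold1, Pole2, Rfc3, Lig1, Uhrf1 and Dnmt1. CCAAT, the motif of NF-Y, was in 57.1% of the windows, against 37.1% for genes on the array, and TTTGAA, the core of the element of many mitotic promoters, was in 11.9% against 12.9%. These are matches of letters, not measured binding sites. The genes with an E2F match had a median log2 change of -0.67 (14 genes) and those with a window and no match -0.68 (20 genes). Tk1 was in the second group. The stretches that follow lie upstream of the start and belong to the gene with the smallest p in each role among those whose match lay wholly in that stretch. Capitals mark the match, and each is written 5′ to 3′ on the strand of the gene.
Cdc6 (chr11:98907977-98908056, plus strand): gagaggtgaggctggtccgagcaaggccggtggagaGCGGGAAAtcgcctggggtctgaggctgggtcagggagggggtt
Mcm6 (chr1:128359709-128359851, minus strand): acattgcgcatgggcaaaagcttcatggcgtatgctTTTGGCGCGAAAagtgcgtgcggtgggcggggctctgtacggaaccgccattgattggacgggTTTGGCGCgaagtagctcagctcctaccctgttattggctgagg
Pola1 (chrX:93632250-93632329, minus strand): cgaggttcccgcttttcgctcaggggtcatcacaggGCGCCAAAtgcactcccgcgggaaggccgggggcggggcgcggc
Rfc3 (chr5:151651209-151651254, minus strand): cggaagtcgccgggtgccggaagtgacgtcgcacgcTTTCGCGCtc
Uhrf1 (chr17:56304092-56304171, plus strand): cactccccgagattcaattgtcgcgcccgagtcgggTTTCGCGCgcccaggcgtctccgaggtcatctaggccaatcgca
Mcm6 held 3 matches, 2 of which overlap, and the others held 1 each.

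Signals below are log2 values in the order FBS replicates 1, 2 and 3, then ascites replicates 2 and 3. Among the licensing genes, Cdt1, which loads the MCM rings and is restrained by geminin, read 12.12, 12.10 and 12.79 in FBS and 11.76 and 11.85 in ascites (change -0.53, SE 0.25, adjusted p = 0.301). Cdc6, the ATPase that helps to load the rings, read 9.06, 8.91 and 10.14 against 8.56 and 8.60 (change -0.79, 95% confidence interval -1.92 to 0.34). FBS replicate 3 stood more than 1 log2 unit above the other FBS arrays, while the ascites arrays lay close together. Orc1, the ATPase subunit of the origin recognition complex that cycles with the cell cycle, showed the largest excess of that array, at 6.73, 6.67 and 8.07 against 6.40 and 6.53. Outside FBS replicate 3, Orc1 read below the T cell marker Cd4 (means of 7.01 in FBS and 6.96 in ascites), which this line should not express. On those arrays Orc1 was not shown to lie above background. Orc6, the smallest subunit, read 11.78, 11.73 and 12.36 against 11.50 and 11.58 (change -0.42). Both ascites arrays lay below all FBS arrays for all 4, as they did for 19.4% of all genes. Of the 4, 0 passed limma's threshold, adjusted or unadjusted. Without FBS replicate 3, Cdc6 fell by 0.41 (adjusted p = 0.0464) and Cdt1 by 0.31 (adjusted p = 0.0411), where 10.9% of all genes fell. The FBS spread in that fit comes from a pair of arrays that are almost alike.

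The 6 subunits of the MCM ring, which act together in equal numbers, did not show the same change. Mcm6 was the subunit furthest down, at 11.90, 11.95 and 12.39 in FBS and 11.11 and 11.35 in ascites, which is 1.80-fold lower (change -0.85, SE 0.19, adjusted p = 0.0829). Mcm3 read 11.14, 11.23 and 12.13 against 10.72 and 10.82 (change -0.73, SE 0.34), and Mcm5 9.85, 9.83 and 10.74 against 9.49 and 9.49 (change -0.65, SE 0.33). Mcm4 was lower by a smaller amount, at 11.14, 11.15 and 11.81 against 10.98 and 10.94 (change -0.41, SE 0.24). Mcm2 and Mcm7 overlapped between the media. Mcm2 read 10.85, 10.73 and 11.55 against 10.85 and 10.81 (change -0.21, 95% interval -0.97 to 0.54), and without FBS replicate 3 its change was 0.04. Mcm7 read 12.81, 12.86 and 13.23 against 12.78 and 12.88 (change -0.14, 95% interval -0.55 to 0.28), and its 3 other probe sets changed by -0.21 to -0.05. The difference between subunits was not tested, and the other probe set of Mcm2 changed by -0.50. Of the 6 subunits, 0 passed with all arrays (1, Mcm6, at an unadjusted p below 0.05). Mcm3, Mcm5 and Mcm6 fell without FBS replicate 3 (limma adjusted p between 0.0183 and 0.0365), where 10.9% of all genes fell and the remaining FBS arrays are almost alike.

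Genes that turn the loaded rings into working helicases had, as a role, the highest median excess of FBS replicate 3 (1.13), though Orc1, Cdc6 and Pold2 exceeded it singly. Cdc45, the helicase cofactor, read 7.78, 7.82 and 8.93 in FBS and 7.20 and 7.44 in ascites (change -0.86, SE 0.41, adjusted p = 0.314). Mcm10, which helps the helicase to start moving, read 8.89, 8.91 and 10.04 against 8.68 and 8.48 (change -0.70, SE 0.42). Gins1, a GINS subunit, read 9.58, 9.64 and 10.69 against 9.51 and 9.38 (change -0.53, SE 0.39). In all 3 genes FBS replicate 3 was 1.08 to 1.14 above the other FBS arrays, and the ascites arrays were below FBS replicates 1 and 2 by -0.17 to -0.48. None of them passed, adjusted or unadjusted, with all arrays. Without FBS replicate 3, 0 passed the adjusted threshold, where 10.9% of all genes fell.

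Primase and polymerase alpha, which begin every new strand, were lower. Their median excess of FBS replicate 3 was 0.55. This was less than the 1.13 of the genes that activate the helicase, but more than the 0.43 of the clamp and its loader. Prim1, the catalytic primase subunit, read 10.78, 10.69 and 11.31 against 9.90 and 10.25, or 1.80-fold lower (change -0.85, SE 0.24, adjusted p = 0.127). Its other probe set changed by -0.92. Pola1, the catalytic subunit of polymerase alpha, read 9.37, 9.32 and 9.55 against 8.64 and 8.99 (change -0.60, SE 0.14, adjusted p = 0.0908), with the smallest excess in FBS replicate 3 of all 39 genes. Pola2, its accessory subunit, read 9.31, 9.31 and 9.84 against 8.85 and 8.88 (change -0.62), and Prim2, the large primase subunit, 9.09, 9.11 and 9.85 against 8.83 and 8.87 (change -0.50). Both ascites arrays lay below all FBS arrays for all 4 genes, as they did for 19.4% of all genes.

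For the replicative polymerases, the catalytic subunit and the second-largest subunit of polymerase epsilon, the leading-strand enzyme, read lower on both ascites arrays than on any FBS array. Its small histone-fold subunits, from the further list for the fork and picked out after their values were seen, overlapped between the media, with changes of -0.16 for Pole3 (SE 0.14) and -0.11 for Pole4 (SE 0.19). Pole, the catalytic subunit, read 9.01, 9.09 and 9.38 against 8.39 and 8.65 (change -0.64, SE 0.15, adjusted p = 0.0933). Pole2, the second-largest, read 8.98, 9.05 and 9.77 against 8.38 and 8.31, or 1.89-fold lower (change -0.92, SE 0.28, adjusted p = 0.142). Pold1, the catalytic subunit of the lagging-strand polymerase delta, read 9.04, 9.14 and 9.74 against 8.54 and 8.57 (change -0.75, SE 0.24). Its partner Pold2 overlapped between the media, at 9.90, 9.93 and 11.06 against 9.62 and 9.93 (change -0.52, 95% interval -1.67 to 0.62).

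The PCNA clamp and its 5-subunit loader, replication factor C, split between the large subunit and the small ones. Pcna read 13.86, 13.78 and 14.24 in FBS and 13.45 and 13.61 in ascites (change -0.43, SE 0.17, adjusted p = 0.222). Rfc1, the large subunit, read 10.38, 10.39 and 10.67 against 10.37 and 10.64, a change of 0.03 (95% interval -0.35 to 0.40), whose sign differed between choices of arrays. Its other probe sets changed by 0.06 and 0.23. The small subunits were all lower. Rfc5 was 2.41-fold lower, at 10.24, 10.32 and 10.98 against 9.02 and 9.47 (change -1.27, SE 0.29, adjusted p = 0.0882), and it fell without FBS replicate 3 (change -1.04, adjusted p = 0.0491). Rfc2 read 10.09, 10.08 and 10.52 against 9.50 and 9.73 (change -0.62), and Rfc3 9.20, 8.94 and 9.38 against 8.78 and 8.63 (change -0.47). Rfc4 read 9.64, 9.57 and 10.20 against 9.50 and 9.08 (change -0.51, SE 0.26). The difference between Rfc1 and the small subunits was not tested.

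At the single strand and the lagging strand, Rpa2, a subunit of the replication protein A complex that coats bare DNA, read 9.29, 9.35 and 10.18 against 8.54 and 8.81, or 1.91-fold lower (change -0.93, SE 0.32, adjusted p = 0.184). Rpa1, the large subunit of the same complex, read 11.82, 11.78 and 12.47 against 11.60 and 11.62 (change -0.41, SE 0.25). Fen1, the flap nuclease that trims Okazaki fragments, read 11.94, 11.93 and 12.86 against 11.39 and 11.43 (change -0.83, SE 0.34). Lig1, the ligase that seals them, read 11.09, 11.09 and 11.67 against 10.78 and 10.70 (change -0.54, SE 0.21). None of these passed with all arrays. Rpa2, Fen1 and Lig1 fell without FBS replicate 3 (limma adjusted p between 0.0124 and 0.0489), where 10.9% of all genes fell. That fit takes its FBS spread from a pair of arrays that are almost alike.

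Nucleotide supply held the gene that fell. Tk1, the cytosolic thymidine kinase that salvages thymidine in S phase, read 11.13, 11.12 and 11.66 in FBS and 9.15 and 9.55 in ascites. Every ascites array was more than 1.5 log2 units below every FBS array, and the fall was 3.87-fold (change -1.95, SE 0.23, 95% interval -2.58 to -1.33, adjusted p = 0.0316). It was also the largest change among the 39 genes, and without FBS replicate 3 it was 3.42-fold (adjusted p = 0.0169). Tk1 did not pass without FBS replicate 1 or 2 (limma adjusted p = 0.16 and 0.166), with those 2 averaged (0.144) or with a replicate block (0.267). The call held with mean probe sets, the filter on dim genes, quantile normalization, array weights, and trend with robust eBayes. Rrm1, the large subunit of ribonucleotide reductase, which makes deoxynucleotides, read 12.18, 12.24 and 12.59 against 11.48 and 11.64, or 1.71-fold lower (change -0.78, SE 0.15, adjusted p = 0.0684). With the mean of its probe sets in place of the brightest, Rrm1 also passed (adjusted p = 0.0229). Its other probe set read 9.49, 9.26 and 8.86 against 8.53 and 8.67. There FBS replicate 3 was the lowest FBS array, opposite to the brightest probe set, so averaging offsets the spread within FBS. Rrm2, the small subunit made in S phase, read 12.21, 12.11 and 12.87 against 11.64 and 11.57 (change -0.79, SE 0.26, adjusted p = 0.169), and its other probe sets changed by -1.04 and -1.32.

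Tyms, thymidylate synthase, could be read alone only from 3 dim probe sets. The one with the highest mean read 4.54, 4.61 and 5.09 against 4.15 and 4.05 (change -0.65, SE 0.19), the other ones changed by 0.05 and 0.14, and the mean of all 3 gave -0.15 (adjusted p = 0.479). Medians of marker genes of blood and endothelial cells, which this line should not express, lay between 4.29 and 5.84 in FBS, so this signal was not shown to lie above background. A further probe set matches both Tyms and its pseudogene Tyms-ps and was outside the rule. It read 10.93, 10.87 and 11.59 in FBS and 10.01 and 10.12 in ascites, a difference of -1.07 that cannot be assigned to either gene.

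**Figure D2:**
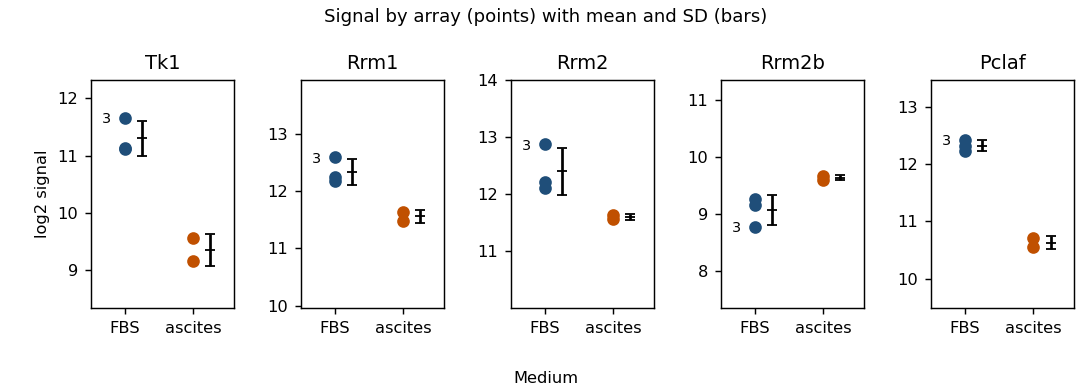
Log2 signal on each FBS array (blue points; replicate 3 is numbered) and each ascites array (orange points), with the mean and SD of each group (black bars), for Tk1, Rrm1, Rrm2, Rrm2b and Pclaf; each vertical axis spans the same number of log2 units. Tk1, Rrm1, Rrm2 and Pclaf are lower in ascites on every array and Rrm2b is higher, while FBS replicate 3 is the highest array for all but Rrm2b, where it is the lowest.

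E2f1, which encodes a transcription factor that drives many of these genes and is itself an E2F target, read 8.73, 8.74 and 9.06 against 8.19 and 8.19, or 1.57-fold lower. It came near the threshold (change -0.65, SE 0.13, adjusted p = 0.0653) and passed without FBS replicate 3 (change -0.55, adjusted p = 0.0108). Its other probe set changed by -0.59.

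Genes that rebuild chromatin and copy its methylation included large differences that were not called. Uhrf1, which recognises hemimethylated DNA and brings in the maintenance methyltransferase, read 10.07, 10.07 and 11.05 against 8.72 and 8.98, or 2.92-fold lower (change -1.55, SE 0.36, adjusted p = 0.0916). It fell without FBS replicate 3 (change -1.22, adjusted p = 0.0163), and its other probe set changed by -1.30. Chaf1b, a subunit of chromatin assembly factor 1, read 8.88, 8.97 and 9.48 against 7.50 and 8.20, or 2.39-fold lower (change -1.26, SE 0.30, adjusted p = 0.0933), with the ascites arrays 0.70 apart. Dnmt1, the maintenance methyltransferase, read 10.78, 10.86 and 11.26 against 10.28 and 10.34 (change -0.66, SE 0.17, adjusted p = 0.106). Without FBS replicate 3, Chaf1b did not pass (change -1.075, limma adjusted p = 0.0973) and Dnmt1 did (change -0.51, limma adjusted p = 0.0195). With Tk1 and Rfc5, Uhrf1 and Chaf1b were the only 4 of the 39 genes at least 2-fold lower, as were 418 of all 12393 genes.

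**Figure D3:**
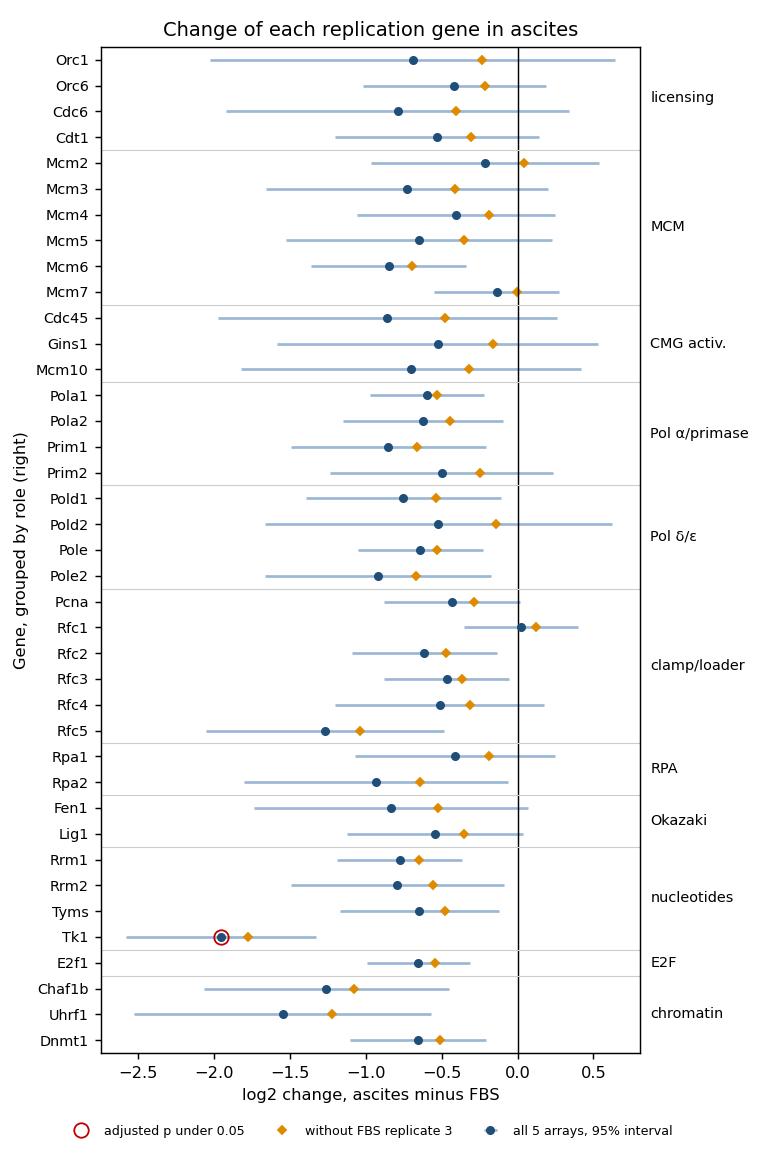
Log2 change, ascites minus FBS, of each of the 39 genes from all 5 arrays with its 95% confidence interval (blue), and the change without FBS replicate 3 (orange diamonds). Only Tk1 (ringed) passed the adjusted p of 0.05, and leaving out FBS replicate 3 moved every estimate toward higher values, past 0 for Mcm2.

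Of the 39 genes, 23 had more than 1 probe set, which gave 32 further readings. Of these, 5 had a mean signal under 6 and changed by -0.11 to 0.14. Among the 27 brighter ones, 24 were lower in ascites (median change -0.58). The 3 higher ones were the 2 of Rfc1 and 1 of 5 for Mcm3 (change 0.04). The excess of FBS replicate 3 did not hold on every brighter one. That array was not the highest in FBS for single probe sets of Rrm1, Rpa2 and Mcm3, and it tied for a probe set of Rfc1. On the rest of the brighter ones it was above both other FBS arrays.

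Other genes of the pathway, from lists drawn up by function with earlier results of these data known, did not all share the direction. Over 58 further replication genes the median change was -0.16, 35 were lower and 23 higher in ascites, 3 fell and 0 rose. Without FBS replicate 3, 15 of the 58 fell and 9 rose, against 10.9% and 9.17% of all genes. The origin list held 13 genes, of which 0 passed (5 lower and 3 higher at an unadjusted p below 0.05), 7 were lower and 6 higher. In it Cdc7, the kinase that fires licensed origins, was 2.92-fold lower, at 8.06, 8.13 and 8.92 against 6.88 and 6.77 (adjusted p = 0.0676). The remaining subunits of the origin recognition complex, picked out after their values were seen, had higher means in ascites, unlike Orc1 and Orc6. Orc2 changed by 0.80 (SE 0.26), Orc3 by 0.13 (SE 0.09), Orc4 by 0.37 and Orc5 by 0.35 (SE 0.07, adjusted p = 0.0718), and 0 of them passed. Orc3 overlapped between the media. Orc2, Orc3 and Orc4 each had 3 probe sets, of which only the brightest is given here.

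The fork list gave 2 falls among 13 genes. Pclaf, the PCNA-associated factor, read 12.32, 12.23 and 12.43 against 10.55 and 10.71, a 3.24-fold fall (change -1.70, SE 0.09, adjusted p = 0.0156), and FBS replicate 3 exceeded the other FBS arrays by 0.16, the smallest excess among the listed replication genes that differed by more than 1 log2 unit. Rnaseh2c, a subunit of the nuclease that removes ribonucleotides from DNA, fell 1.61-fold (adjusted p = 0.0228). The E2F and retinoblastoma list gave 1 fall among 9 genes, in Rbl1, which encodes the E2F-restraining protein p107, from 10.03, 10.08 and 10.34 to 8.98 and 8.90 (2.31-fold, adjusted p = 0.0222). E2f8, an E2F repressor, picked out after its value was seen, was 3.71-fold lower (SE 0.40, adjusted p = 0.0768), whereas E2f4 differed by 0.01 (95% interval -0.14 to 0.15).

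Among 15 other genes of nucleotide metabolism, 10 were higher in ascites, 0 passed (1 lower and 4 higher at an unadjusted p below 0.05) and the median change was 0.20. Without FBS replicate 3, 5 of the 15 rose (Rrm2b, Dut, Shmt1, Gart and Impdh1) and 1 fell (Samhd1), against 9.17% and 10.9% of all genes. Samhd1, which breaks down deoxynucleotides, had the smallest p and showed a change of -0.44 (SE 0.08, adjusted p = 0.054). Rrm2b, which encodes the p53-inducible small subunit of ribonucleotide reductase and was picked out after its values were seen, read 9.26, 9.16 and 8.77 in FBS and 9.60 and 9.66 in ascites (change 0.57, SE 0.17, adjusted p = 0.139), and without FBS replicate 3 it rose (change 0.42, adjusted p = 0.0306). The direction was thus opposite to that of Rrm2, in the ascites arrays and in FBS replicate 3 alike. In the chromatin list 0 of 8 passed (2 lower and 1 higher unadjusted), and Asf1b, a histone chaperone, was 2.47-fold lower (adjusted p = 0.0603).

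**Figure D4:**
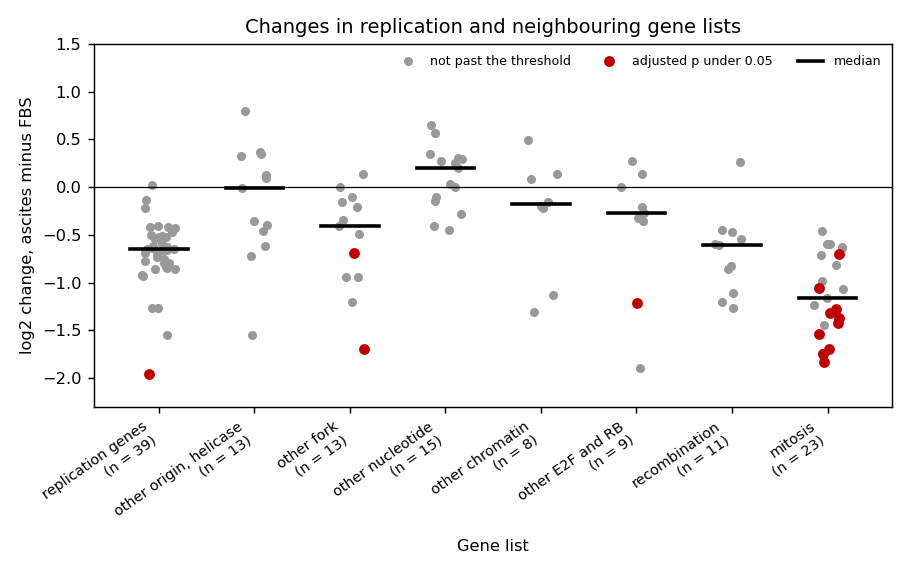
Log2 change, ascites minus FBS, of every measured gene in the 39 replication genes and 7 other lists (points; horizontal offsets within a list have no meaning), with the list median (black bar) and genes past an adjusted p of 0.05 in red. The median is -0.65 for the replication genes, 0.20 for other nucleotide genes and -1.16 for mitosis genes.

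Set beside genes of mitosis, the replication genes differed in the size of the gaps between arrays and in the order of the ascites arrays. Of 23 mitosis genes all were lower in ascites, 10 fell (Mki67, Ccnb2, Cenpa, Cenpf, Kif11, Kif23, Nusap1, Tpx2, Birc5 and Top2a) and the median change was -1.16. FBS replicate 3 read above both other FBS arrays for 20 of 23 mitosis genes and for all 39 replication genes. Both ascites arrays lay below all FBS arrays for 22 of 23 and 35 of 39, so much of the order was shared. FBS replicate 3 exceeded replicates 1 and 2 by a median of 0.41 for mitosis genes, against 0.65 for the 39 replication genes. The gap within FBS was larger than the ascites gap for 4 of 23 mitosis genes, against 26 of 39 and 5222 of all 12393 genes. The ascites arrays also ordered the lists differently. Ascites replicate 3 was below ascites replicate 2 for 22 of 23 mitosis genes (median -0.37) and above it for 27 of the 39 replication genes (median 0.08). Over 11 genes of homologous recombination and the damage checkpoint, 0 passed (4 lower unadjusted), the median change was -0.60 and FBS replicate 3 stood 0.63 above the other FBS arrays. In that list Fanci, a Fanconi anaemia protein, had the smallest p (change -0.86, SE 0.15, adjusted p = 0.059). The differences between lists were not tested.

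**Figure D5:**
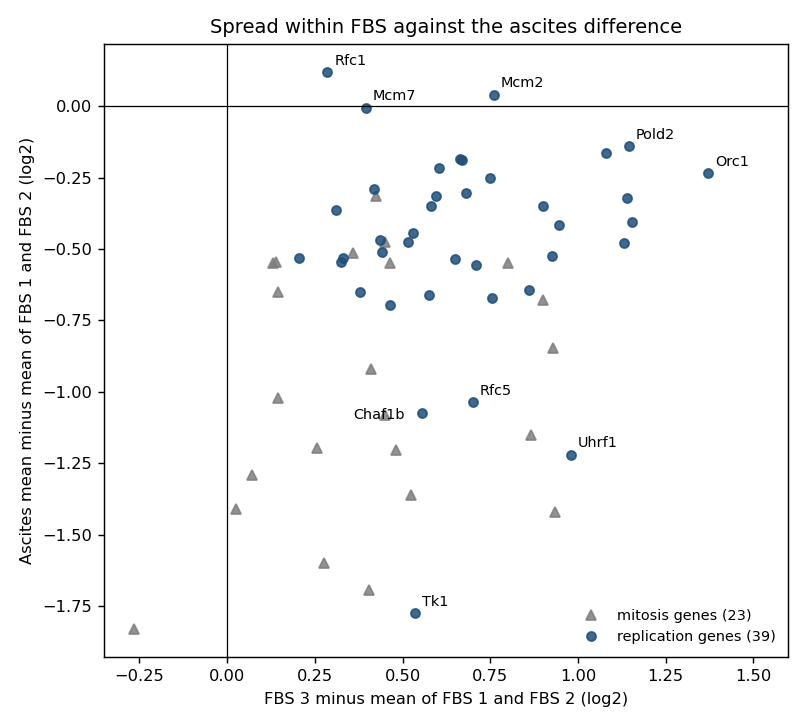
For each of the 39 replication genes (blue circles) and 23 mitosis genes (grey triangles), the excess of FBS replicate 3 over the mean of FBS replicates 1 and 2 (horizontal, log2) against the ascites mean minus that same mean (vertical, log2). Both axes subtract the same arrays, so no correlation is read from the plot; all replication genes lie right of 0, and Tk1 is the lowest of them.

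Of 9 measured markers of ovarian surface epithelium and mesothelium, 7 were lower and 2 higher in ascites, and 2 fell. Upk3b, a mesothelial marker and the brightest of the list, read 14.63, 14.61 and 12.66 in FBS and 12.02 and 11.32 in ascites. Msln, mesothelin, picked out after its values were seen, went the other way between the media, at 12.45, 12.51 and 11.46 against 12.30 and 12.72 (change 0.37, SE 0.39). Krt18 and Krt19, keratins of simple epithelia, fell (adjusted p = 0.0361 and 0.0428), and FBS replicate 3 was close to the other FBS arrays for Krt19 (13.19, 13.22 and 13.15). The summed linear signal of the list was 40226 to 70611 in FBS and 23668 to 28496 in ascites. For Upk3b, FBS replicate 3 was nearer to the ascites arrays than to the other FBS arrays, while for the replication genes it was the FBS array farthest from them. Cdh1 and Epcam read 5.61 to 6.05 on all arrays. Among markers of macrophages (10 genes), neutrophils (5), T cells (6), B cells (4), endothelium (4) and erythroid cells (3), 0 passed and median levels were 4.29 to 5.84 in FBS and 4.27 to 5.82 in ascites. The summed signal of the macrophage list was 514 to 590 in FBS and 547 to 640 in ascites, with Cd14 the brightest (means of 7.01 in FBS and 7.39 in ascites). Of 5 fibroblast genes 0 passed, and Dcn, the brightest, read 14.32, 14.30 and 12.81 against 13.09 and 12.62. The part of these markers in the replication results was not tested.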

How the data were processed

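Total RNA of ID8 cells was hybridised to 5 Affymetrix mouse arrays, and Affymetrix Expression Console made the values, per the submitters' processing notes, which leave out version and algorithm. Deposited values were taken as log2 from their range, with array medians of 7.40 to 7.47, and were used with no further normalization. They carry no detection call, so the background of dim genes is unknown. Precision depends on how many arrays there are and on the scatter among them.

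Of 22690 probe sets, 64 controls were left out, 20380 named 1 gene, 691 several and 1555 none, per a platform annotation. Of the 20380, 20351 matched a RefSeq table (GRCm38.p6), and 0 symbols changed. Each of 12393 genes was read from its probe set with the highest mean. The media were compared in R 4.3.3 by limma 3.58.1 (two-sided, lmFit and eBayes; 3 residual and 1.33 prior degrees of freedom), with Benjamini-Hochberg adjustment over all 12393 genes and a threshold of 0.05. The code was tested on simulated data. Members and lists were chosen with earlier results of these data known. All measured members could be named, and from the other lists genes past the threshold or, with none, the smallest p; for markers, the brightest. Genes named otherwise were picked after their values were seen. Alternatives were a replicate block, leaving out each array, averaging FBS replicates 1 and 2, mean probe sets, a filter on dim genes, quantile normalization, array weights, and trend with robust eBayes.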

Additional observations from a re-analysis of the deposited data

How the results depend on the processing

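The median log2 change of the 39 genes kept its sign under every alternative run, from -0.75 to -0.45. The number of them that fell did not hold. It was 1 with all arrays, ranged from 0 to 20 as each array was left out, and was 0 with FBS replicates 1 and 2 averaged (18 lower unadjusted), 2 with the mean of all probe sets and 15 with array weights, which gave FBS replicate 3 a weight of 0.19. Only leaving out FBS replicate 3 gave a count above 0 among the omissions. Over all genes 654 passed, with a range of 0 to 2494 as each array was left out (2016 to 4349 at an unadjusted p below 0.05), 0 with FBS replicates 1 and 2 averaged (2128 unadjusted) and 2612 with array weights. The 0 of 39 that rose was the same under all of them. Rfc1, never called, changed sign, from -0.11 to 0.16 as each array was left out and -0.023 with FBS replicates 1 and 2 averaged. Mcm2 ranged from -0.37 to 0.04 as arrays were left out and was 0.024 with array weights. The causes of these shifts were not tested.

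Replicate numbers 2 and 3 are shared by the media. Over all genes, same-numbered arrays did not deviate together from their group means (correlations of 0.03 and 0.04). The deviations of the 2 ascites arrays mirror each other by construction (correlation -1). These values therefore cannot decide whether same-numbered arrays were handled together. With a replicate block 0 of the 39 genes (17 lower unadjusted) and 0 of all genes (1891 unadjusted) passed in limma, and the change of Rfc1 was -0.025. This fit has fewer residual degrees of freedom.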
